A study of Mus musculus with 21 samples.

Results

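Transcripts of the gut lining were followed in RNA libraries made from sorted mouse B cells. The set held 37 genes named for their role in the intestinal epithelium: 13 of enterocytes, 7 of goblet cells, 3 that encode antimicrobial proteins and 14 that epithelial cells of several kinds share. Of these, 36 had a row among the 23337 genes of the count table, and Muc2 was not analysed here. B cells labelled HEL neg, HEL pos or BCL2 HEL pos came from Peyer's patches (PP), mesenteric lymph node (mLN) and spleen of C57BL/6 mice aged 8 to 12 weeks, in a study of B cells that recognise self in the gut. HEL and BCL2 are not spelled out in the labels, which name neither a transgene's promoter nor a shared allele. Each tissue gave 1 pooled HEL neg library, 3 HEL pos libraries (Pool, 392 and 399) and 3 BCL2 HEL pos libraries (922, 926 and 950), 21 in all. Mice of a group were caged together. Whether a numbered library is a single mouse is not stated. A p-value here therefore reflects how far libraries of a group differ, and part of that may be technical.

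Peyer's patches are groups of lymphoid follicles under the lining of the small intestine, covered by a single layer of epithelium, and B cells are their most numerous cells. Enterocytes of that layer absorb nutrients and package fat with apolipoproteins. Goblet cells secrete mucus, and Paneth cells at the base of the crypts secrete antimicrobial proteins. B cells are not known to make apolipoproteins, brush border enzymes or mucus proteins. Their counts in a B cell library are called epithelial here. Spleen and mLN have no such lining, and their 14 libraries gave the background against which the 7 PP libraries were read.

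Library totals ran from 5475131 counts in PP HEL neg to 11340876 in PP BCL2 HEL pos 950, so that 3 counts, the limit that a count of 0 allows, came to 0.265 to 0.548 CPM (counts divided by the library's total and multiplied by 1000000). Transcripts of B cell identity genes summed to 12872 to 15610 CPM in PP and 10497 to 22846 CPM elsewhere. Some libraries stood apart in transcripts that B cells are not known to use: summed odorant and vomeronasal receptor genes reached 943 CPM in PP HEL pos Pool, 719 CPM in PP HEL pos 399, 535 CPM in PP HEL neg and 466 CPM in spleen HEL pos 399, against 54.7 to 125 CPM in the remaining PP libraries. A list of T cell genes came to 82.2 CPM in PP HEL neg and 4.55 to 35.1 CPM in the other PP libraries, inside the 2.23 to 62.0 CPM of spleen and mLN for all but the first. PP HEL neg, HEL pos Pool and HEL pos 399 were also the PP libraries with the largest sums of the epithelial genes, at 2169, 1237 and 1594 CPM. The part of receptor transcripts or of T cell RNA in the epithelial values was not tested. Calls and the main ratios of PP HEL pos cells are also given without PP HEL pos 399 and Pool. That leaves library 392 alone in that group, the HEL pos library of PP with the lowest epithelial sum (353 CPM). The spread of a lone library is then taken from the other groups.

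Epithelial transcripts were present in all 7 PP libraries, at levels that spanned more than an order of magnitude between them. The 36 genes summed to 2169 CPM in HEL neg cells, or 0.217% of all counts (95% exact binomial interval 0.213 to 0.221%). HEL pos cells held 1237 CPM in Pool, 353 CPM in 392 and 1594 CPM in 399, a mean of 1062 ± 639 CPM (SD, n = 3). BCL2 HEL pos cells held 61.8 CPM in 922, 195 CPM in 926 and 261 CPM in 950, a mean of 172.8 ± 101.6 CPM (SD, n = 3). Every HEL pos library of PP lay above every BCL2 HEL pos library. The 14 libraries of spleen and mLN ran from 32.7 to 88.5 CPM with a median of 55.6 CPM, so PP BCL2 HEL pos 922 lay inside their range and the other 6 PP libraries above it. In bulk libraries, fewer cells of a type and less RNA per cell cannot be told apart.

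Most of what spleen and mLN held came from 4 genes. Epcam, Cdh17, Lgals4 and Pigr had counts in all 21 libraries and summed to 31.2 to 83.6 CPM outside PP and 39.3 to 155 CPM in PP. Without them the sum was 2015 CPM in PP HEL neg, 1121, 289 and 1524 CPM in HEL pos Pool, 392 and 399, and 22.6, 143 and 198 CPM in BCL2 HEL pos 922, 926 and 950. The same 32 genes summed to 0.133 to 8.36 CPM in the 14 other libraries, with a median of 2.78 CPM, and no PP library fell into that range. PP HEL neg, HEL pos Pool and HEL pos 392 each held counts of all 36 genes, HEL pos 399 of 34, and the BCL2 HEL pos libraries of 25 to 33. Spleen and mLN libraries held counts of 5 to 23.

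**Figure D1:**
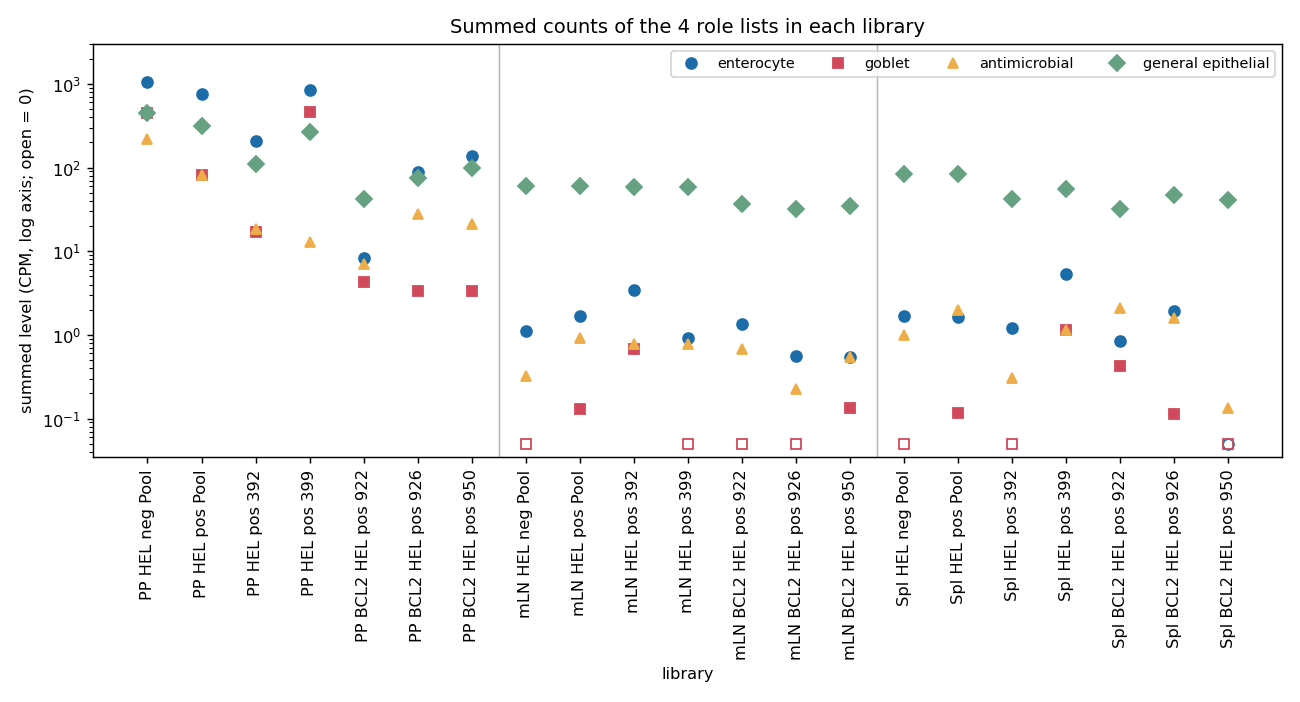
Summed CPM of the enterocyte, goblet, antimicrobial and general epithelial genes in each of the 21 libraries on a log axis, with 1 marker per role and library. Open markers stand for 0 counts. Enterocyte genes reached 1053 CPM in PP HEL neg and at most 5.33 CPM in any spleen or mLN library.

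Enterocyte genes made up the largest role in 6 of the 7 PP libraries. They summed to 1053 CPM in HEL neg cells of PP, to 757, 208 and 847 CPM in HEL pos Pool, 392 and 399, and to 8.22, 89.6 and 136 CPM in BCL2 HEL pos 922, 926 and 950. No spleen or mLN library passed 5.33 CPM. All 13 genes had counts in the HEL neg and the 3 HEL pos libraries of PP.

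Genes of fat transport and fat binding supplied most enterocyte counts in every PP library. Apoa1, which encodes the main protein of high-density lipoprotein, stood at 291 CPM in the HEL neg pool, 169.6, 63.9 and 207 CPM in HEL pos Pool, 392 and 399, and 0.249, 9.89 and 11.3 CPM in BCL2 HEL pos 922, 926 and 950. Its counts in the other 14 libraries were 1 in mLN HEL neg and 1 in mLN BCL2 HEL pos 950. Apoa4, an apolipoprotein of chylomicrons, stood at 187 CPM in the HEL neg pool, 126, 38.7 and 305 CPM in HEL pos Pool, 392 and 399, and 0.498, 2.94 and 7.94 CPM in BCL2 HEL pos 922, 926 and 950. Both genes were lowest in BCL2 HEL pos 922, and every HEL pos library lay above every BCL2 HEL pos library. Apoc3, which slows the clearance of triglyceride-rich particles, followed at 33.4 CPM in the HEL neg pool, 21.8, 6.08 and 38.6 CPM in HEL pos Pool, 392 and 399, and 0.249, 1.74 and 3.00 CPM in BCL2 HEL pos 922, 926 and 950. Apoa1 (chromosome 9, 46228580 to 46230466), Apoc3 (46232933 to 46235636) and Apoa4 (46240696 to 46243459) lie side by side in GENCODE M21 (GRCm38, the assembly also called mm10). Apob, the structural protein of chylomicrons, is on another chromosome (chromosome 12, 7977648 to 8016835) and stood at 8.22 CPM in the HEL neg pool, 22.5, 6.82 and 18.8 CPM in HEL pos Pool, 392 and 399, and 0, 0.668 and 0 CPM in BCL2 HEL pos 922, 926 and 950. It was counted in only 1 BCL2 HEL pos library.

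The small binding proteins of the enterocyte cytoplasm were counted in all 7 PP libraries. Fabp2, the intestinal fatty acid-binding protein, stood at 189 CPM in the HEL neg pool, 178, 54.4 and 113 CPM in HEL pos Pool, 392 and 399, and 3.61, 38.8 and 55.4 CPM in BCL2 HEL pos 922, 926 and 950. The HEL pos library 392 lay below BCL2 HEL pos 950, so the groups overlapped. Fabp1, the liver-type fatty acid-binding protein, had 76.0 CPM in the HEL neg pool, 70.5, 14.1 and 61.4 CPM in HEL pos Pool, 392 and 399, and 1.74, 10.0 and 29.3 CPM in BCL2 HEL pos 922, 926 and 950. Rbp2, which carries retinol in enterocytes, had 70.7 CPM in the HEL neg pool, 57.8, 12.6 and 41.9 CPM in HEL pos Pool, 392 and 399, and 1.50, 11.6 and 26.6 CPM in BCL2 HEL pos 922, 926 and 950. Both overlapped between the groups in the same way, with 392 below 950. Per kilobase of annotated exon, the mean over the 7 PP libraries was 93.4 CPM for Fabp2, 87.1 CPM for Apoa1, 67.9 CPM for Fabp1, 52.6 CPM for Apoa4 and 33.1 CPM for Rbp2.

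Enzymes and carriers of the brush border gave fewer counts. Anpep, an aminopeptidase, stood at 49.1 CPM in the HEL neg pool, 18.5, 4.60 and 16.7 CPM in HEL pos Pool, 392 and 399, and 0.125, 1.34 and 0.617 CPM in BCL2 HEL pos 922, 926 and 950. Slc5a1, the sodium-glucose carrier, stood at 60.1 CPM in the HEL neg pool, 29.9, 1.78 and 2.43 CPM in HEL pos Pool, 392 and 399, and 0, 3.21 and 1.32 CPM in BCL2 HEL pos 922, 926 and 950. Its HEL pos libraries 392 and 399 lay below BCL2 HEL pos 926. Sis, which encodes sucrase-isomaltase, had 35.8 CPM in the HEL neg pool, 37.2, 1.48 and 14.3 CPM in HEL pos Pool, 392 and 399, and 0, 2.94 and 1.06 CPM in BCL2 HEL pos 922, 926 and 950. The meprin subunit Mep1b had 32.9 CPM in the HEL neg pool, 15.2, 1.93 and 17.2 CPM in HEL pos Pool, 392 and 399, and 0, 4.95 and 0 CPM in BCL2 HEL pos 922, 926 and 950. In BCL2 HEL pos cells, no library other than 926 held more than 1.32 CPM of any of these 4 genes. Lct, the lactase gene, ran from 1.19 to 18.4 CPM in the 4 HEL neg and HEL pos libraries and from 0 to 0.936 CPM in BCL2 HEL pos cells. Mep1a, the other meprin subunit, was at 1.83 CPM or less in every PP library.

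Goblet cell genes differed widely between the HEL pos libraries. They summed to 449 CPM in HEL neg, 82.2, 16.9 and 467 CPM in HEL pos Pool, 392 and 399, and 4.24, 3.34 and 3.35 CPM in BCL2 HEL pos 922, 926 and 950. Spleen and mLN libraries held 0 to 1.15 CPM. Zg16, a lectin of intestinal mucus, stood at 279.6 CPM in the HEL neg pool, 28.4, 8.75 and 244 CPM in HEL pos Pool, 392 and 399, and 1.12, 1.47 and 1.15 CPM in BCL2 HEL pos 922, 926 and 950. It was thus high in HEL neg and in HEL pos 399 and much lower in the other libraries. Tff3, the trefoil peptide of goblet cells, had 95.3 CPM in the HEL neg pool, 20.6, 2.37 and 115 CPM in HEL pos Pool, 392 and 399, and 0.249, 0.936 and 1.94 CPM in BCL2 HEL pos 922, 926 and 950, again high in HEL neg and HEL pos 399. Fcgbp, a large mucus protein, had 64.8 CPM in the HEL neg pool, 28.7, 2.97 and 105 CPM in HEL pos Pool, 392 and 399, and 0.748, 0.267 and 0 CPM in BCL2 HEL pos 922, 926 and 950. Agr2, an isomerase needed for mucin folding, reached 6.39 CPM in HEL neg, was at most 0.445 CPM in HEL pos cells and had no count in BCL2 HEL pos cells. Guca2a, which encodes guanylin, had 1.64 CPM in the HEL neg pool, 3.14, 1.19 and 0.174 CPM in HEL pos Pool, 392 and 399, and 1.50, 0.401 and 0.265 CPM in BCL2 HEL pos 922, 926 and 950. Spink4, a protease inhibitor, reached 2.78 CPM at most. Guca2a had no count in any of the 14 libraries of spleen and mLN.

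The antimicrobial genes did not share a pattern. Reg3b and Reg3g encode lectins that bind bacteria and are made by Paneth cells and enterocytes. Reg3b stood at 125 CPM in the HEL neg pool, 37.3, 7.71 and 1.91 CPM in HEL pos Pool, 392 and 399, and 0.125, 10.7 and 8.02 CPM in BCL2 HEL pos 922, 926 and 950. Reg3g stood at 88.8 CPM in the HEL neg pool, 39.6, 6.68 and 3.30 CPM in HEL pos Pool, 392 and 399, and 1.99, 13.8 and 5.91 CPM in BCL2 HEL pos 922, 926 and 950. For both genes HEL pos 399 was the lowest HEL pos library and lay below BCL2 HEL pos 926 and 950, although it held the most Zg16 and Apoa4 of the HEL pos libraries. Lyz1, the lysozyme of Paneth cells, stood at 3.65 CPM in the HEL neg pool, 3.47, 4.30 and 7.65 CPM in HEL pos Pool, 392 and 399, and 4.98, 3.48 and 7.50 CPM in BCL2 HEL pos 922, 926 and 950. The range was narrow, and other tissues held 0 to 2.00 CPM. Lyz1 is nearly identical to Lyz2, the lysozyme of myeloid cells, so counts of Lyz1 are uncertain. Lyz2 averaged 11.5 CPM in PP and reached 23.8 CPM in another tissue. A wider list of Paneth cell genes was also low. Of its 18 genes 16 had a row and 14 had counts in PP, and their sum was highest in BCL2 HEL pos 922, at 8.85 CPM, against 1.39 to 5.29 CPM in the other PP libraries and 0 to 0.576 CPM elsewhere.

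Among genes that all gut epithelial cells share, 2 kinds were seen. Keratins, villin and the mucin Muc13 had few counts outside PP. Krt8, a keratin of simple epithelia, stood at 83.1 CPM in the HEL neg pool, 45.9, 13.4 and 57.7 CPM in HEL pos Pool, 392 and 399, and 1.87, 5.21 and 8.99 CPM in BCL2 HEL pos 922, 926 and 950. Krt20, the keratin of mature villus cells, stood at 62.3 CPM in the HEL neg pool, 50.7, 9.20 and 61.7 CPM in HEL pos Pool, 392 and 399, and 0.748, 5.35 and 20.3 CPM in BCL2 HEL pos 922, 926 and 950, with no count in any spleen or mLN library. Muc13, a membrane mucin, had 53.9 CPM in the HEL neg pool, 39.0, 10.7 and 38.6 CPM in HEL pos Pool, 392 and 399, and 0.125, 4.14 and 0.265 CPM in BCL2 HEL pos 922, 926 and 950. All 3 were at their lowest in BCL2 HEL pos 922. Vil1, which bundles actin in microvilli, ran from 3.26 to 30.3 CPM in HEL neg and HEL pos cells and from 0.125 to 4.50 CPM in BCL2 HEL pos cells. Cldn7, Cldn15, Krt18 and Krt19 were at most 20.5 CPM in any PP library, and Cldn3 and the gut transcription factor Cdx1 at most 8.58 CPM.

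The 4 genes counted in every library behaved otherwise. Cdh17, a cadherin of the gut lining that B-lineage cells are also known to carry, stood at 41.5 CPM in the HEL neg pool, 32.2, 18.5 and 16.3 CPM in HEL pos Pool, 392 and 399, and 24.7, 22.5 and 34.0 CPM in BCL2 HEL pos 922, 926 and 950. Spleen and mLN libraries held 6.13 to 47.1 CPM, a range that takes in all 7. Epcam, an adhesion molecule of epithelia, had 32.7 CPM in the HEL neg pool, 35.3, 24.3 and 27.6 CPM in HEL pos Pool, 392 and 399, and 4.24, 13.5 and 10.2 CPM in BCL2 HEL pos 922, 926 and 950, against 3.34 to 34.6 CPM elsewhere. It averaged 31.4 ± 3.28 CPM in mLN HEL pos cells and 29.1 ± 5.65 CPM in PP HEL pos cells (SD, n = 3 each). Pigr, the receptor that carries antibodies across the epithelium, stood at 73.4 CPM in the HEL neg pool, 42.6, 19.7 and 24.0 CPM in HEL pos Pool, 392 and 399, and 8.10, 12.7 and 12.7 CPM in BCL2 HEL pos 922, 926 and 950. Its level in PP HEL neg was above the highest of spleen and mLN, 23.5 CPM, while all 3 BCL2 HEL pos libraries of PP lay inside that range. Lgals4, a galectin, had 7.12 CPM in the HEL neg pool, 6.28, 1.34 and 2.26 CPM in HEL pos Pool, 392 and 399, and 2.24, 3.88 and 6.08 CPM in BCL2 HEL pos 922, 926 and 950, against 1.01 to 4.82 CPM elsewhere.

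**Figure D2:**
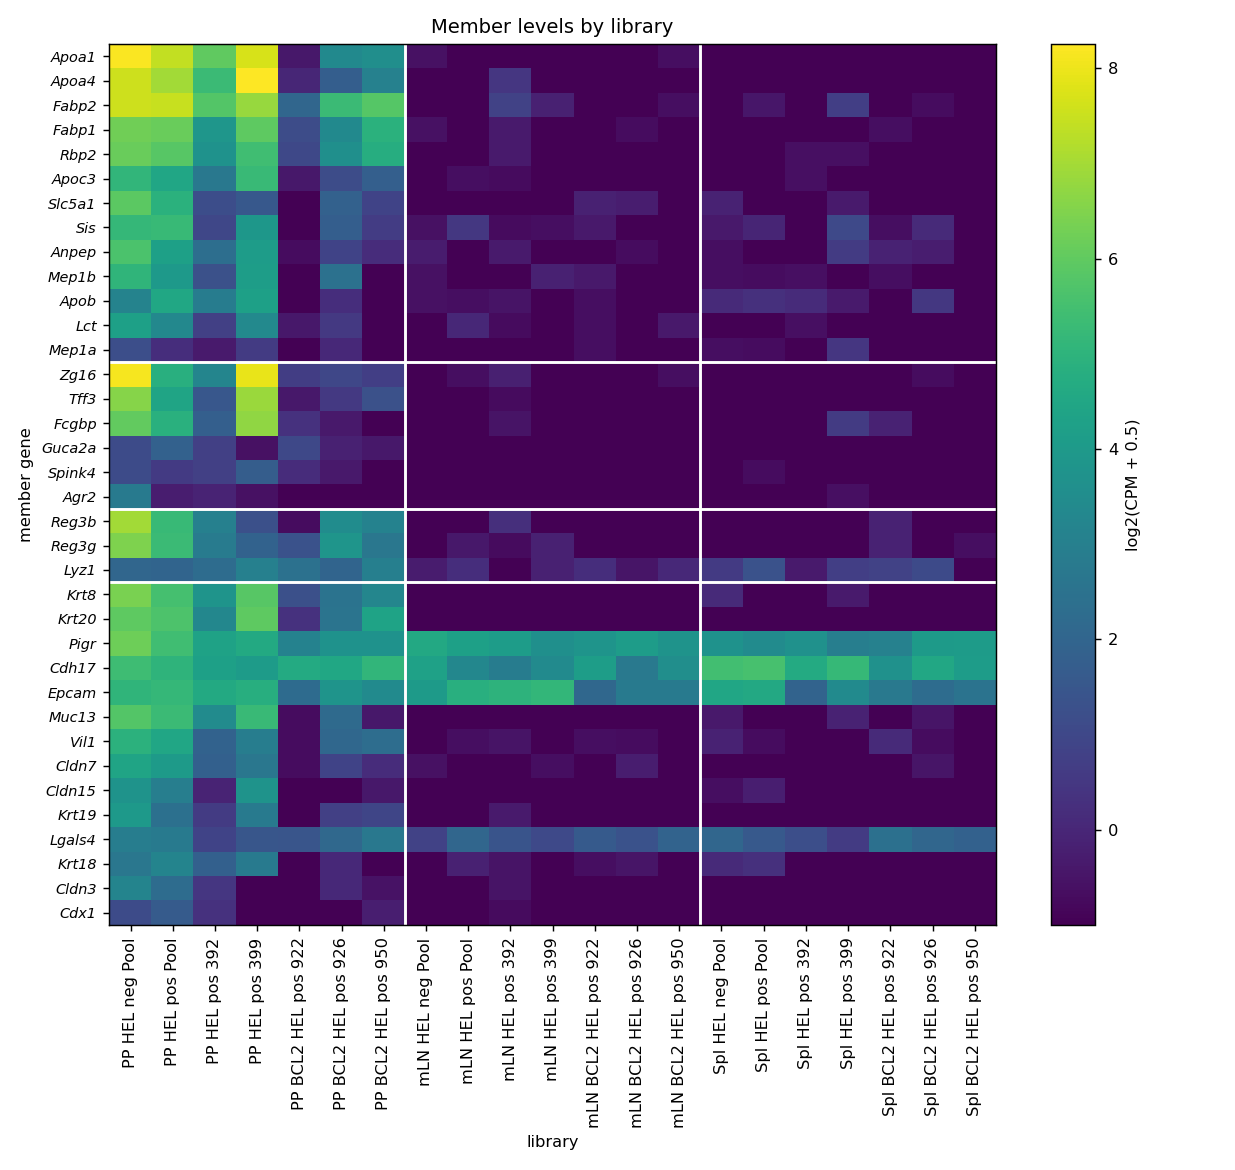
Level of each of the 36 genes in each of the 21 libraries, shaded by CPM on a log scale, with genes ordered by role. Enterocyte, goblet and keratin genes were near 0 outside PP, while Epcam, Cdh17, Pigr and Lgals4 had counts in every library.

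In 12 of the 36 genes every PP library lay above every spleen and mLN library. They were 5 enterocyte, 3 goblet, 2 antimicrobial and 2 general epithelial genes. Over all 21821 genes with a count, 0.192% had that order. HEL neg cells of PP had the highest level of 24 genes, HEL pos Pool of 6 and HEL pos 399 of 6. In all, 27 genes were lowest in BCL2 HEL pos 922, some of them tied at 0 counts with 926 or 950. The share of all genes highest or lowest in these libraries was not worked out, so these numbers are a description only.

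In the 14 libraries of spleen and mLN, Sis had 35 counts, Lct 9, Fabp1 6 and Krt20 0. Short stretches before the transcription start of these 4 genes, which differ in function, are shown to be read side by side. Each is 180 bases, from RefSeq (GRCm38.p6), read 5′ to 3′ on the gene's own strand, and overlaps no annotated exon. Capitals mark matches on either strand to TTTATG, a core of sites bound by CDX factors, to AGATAA, a core of GATA sites, and to TATAAA, the TATA box. TTTATG and the reverse complement of TATAAA share the letters TTTAT, and the 2 TATA matches of Sis overlap. The windows are chr3:72967864-72968043 (minus strand) for Sis, chr1:128328319-128328498 (minus) for Lct, chr6:71199647-71199826 (plus) for Fabp1 and chr11:99438154-99438333 (minus) for Krt20. That of Fabp1 ends 52 bases before the RefSeq start.
Sis: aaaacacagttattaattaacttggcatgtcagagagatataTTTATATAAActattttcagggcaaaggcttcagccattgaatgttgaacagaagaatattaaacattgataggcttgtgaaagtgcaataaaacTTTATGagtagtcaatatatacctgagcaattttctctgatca
Lct: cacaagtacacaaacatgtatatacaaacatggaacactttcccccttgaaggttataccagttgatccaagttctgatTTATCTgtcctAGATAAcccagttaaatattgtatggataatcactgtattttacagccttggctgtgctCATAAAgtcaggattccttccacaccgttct
Fabp1: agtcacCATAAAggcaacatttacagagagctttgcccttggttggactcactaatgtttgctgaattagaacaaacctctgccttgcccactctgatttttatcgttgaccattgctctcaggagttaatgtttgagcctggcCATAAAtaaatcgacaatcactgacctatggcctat
Krt20: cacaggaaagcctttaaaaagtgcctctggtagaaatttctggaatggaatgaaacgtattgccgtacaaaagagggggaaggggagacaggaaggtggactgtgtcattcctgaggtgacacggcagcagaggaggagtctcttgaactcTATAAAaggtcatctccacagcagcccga
Sis, Lct and Fabp1 each held TTTATG or its reverse complement CATAAA. Krt20 held a TATA box 29 to 24 bases before its start. Fabp1 held TATAAA 30 to 25 bases before its RefSeq start, which lies beyond the end of the printed window. Of the 37 genes 29 matched a RefSeq promoter by symbol, with 31 start sites. In the 250 bases before the start, TTTATG was found in 7 of 31 (22.6%) and in 10.8% of all 32851 promoters. TATAAA was found in 8 (25.8%, against 12.4% of all), AGATAA in 6 (19.4%, against 9.99%), and CAAAGTCCA, a site of HNF4 factors, in the promoter of Muc13 alone (3.23%, against 0.384%). A site of HNF1 factors, searched by its palindromic core, was in none of the 31 and in 0.116% of all. A match describes letters only.

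PP and spleen were first compared in HEL pos cells. Of 28 genes with enough counts to test, 24 were higher in PP (edgeR's quasi-likelihood test, Benjamini-Hochberg adjusted p under 0.05), where 7.94% of all 11419 tested genes were higher. None was lower, where 7.43% were. A gene could pass the filter on low counts through PP alone, so the 28 are those with counts and not a sample of the set. A higher level in PP was thus favoured for genes with few counts elsewhere, and the 24 describe the tested genes only. Lct, Mep1a, Agr2, Spink4, Guca2a, Cldn3, Cldn15 and Cdx1 did not pass this filter, which asks for a minimum level in several libraries. Lct and Cldn15 were low in PP HEL pos 392, at 1.19 and 0.445 CPM. Sizes are given as ratios of group CPM, because many genes had no count in spleen. With 3 counts over the 3 spleen libraries as the limit, PP was at least 1100-fold higher for Apoa4, at least 1049-fold for Apoa1, at least 647-fold for Zg16, at least 346-fold for Fabp1 and at least 286-fold for Krt20. Fabp2, with 10 counts in spleen HEL pos cells, was 248-fold higher (95% interval 135 to 518, counting error only). Its log2 fold change was 7.85 ± 0.89 (SE, adjusted p = 6.66e-06). Fcgbp was 135-fold higher (65.1 to 336), with a log2 fold change of 7.03 ± 1.21 (adjusted p = 5.82e-04). Over the 36 genes the median ratio was 87.2, with 13 genes at their bound. In library 392 alone the bound was 469-fold for Apoa1, 284-fold for Apoa4, 64.2-fold for Zg16, 103-fold for Fabp1 and 67.5-fold for Krt20. Fabp2 was 119.9-fold higher there (64.4 to 252) and Fcgbp 9.33-fold (3.79 to 26.1), and the median over 34 genes was 20.4, with 13 at their bound.

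The 4 tested genes that did not pass were Lyz1, Epcam, Lgals4 and Cdh17. The log2 fold change of Lyz1 was 2.09 ± 0.81 (adjusted p = 0.0875) and that of Epcam 1.18 ± 0.43 (adjusted p = 0.0678). Cdh17 stood at -0.74 ± 0.31 (adjusted p = 0.116), from means of 22.4 ± 8.59 CPM (PP) and 35.8 ± 11.3 CPM (spleen), each over 3 libraries with its SD. Pigr passed with the smallest change of the 24, at 1.46 ± 0.30 (adjusted p = 0.00234). Without PP HEL pos Pool and 399, 15 genes passed, while calls over all genes dropped from 1756 to 640.

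Against mLN the result was alike. Of the 28 genes 25 were higher in PP HEL pos cells, where 5.34% of all tested genes were higher, and none was lower, where 3.52% were. The filter could be passed through PP alone, and a gene without a count in mLN could not come out lower. A higher level in PP was thus favoured, and the 25 describe the tested genes only. In all, 11 passed without PP HEL pos Pool and 399, and calls over all genes dropped from 1012 to 209. Apoa1 was at least 1224-fold higher, Krt20 at least 334-fold and Krt8 at least 323-fold, with no count in mLN HEL pos cells. Apoa4 was 428-fold higher (225 to 937), Zg16 453-fold (194 to 1397) and Fabp2 181-fold (111 to 317). With library 392 alone these were at least 548-fold for Apoa1, at least 78.8-fold for Krt20, at least 114-fold for Krt8, 110.5-fold for Apoa4 (57.3 to 244), 45.0-fold for Zg16 (18.2 to 144) and 87.4-fold for Fabp2 (53.1 to 155). Cdh17 passed here, at a log2 fold change of 1.27 ± 0.33 (adjusted p = 0.0208), with 8.80 ± 1.68 CPM in mLN (SD, n = 3). Epcam, at -0.19 ± 0.41 (adjusted p = 0.820), and Pigr, at 0.78 ± 0.29 (adjusted p = 0.100), did not pass. The comparisons with spleen and mLN share the 3 PP libraries.

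BCL2 HEL pos cells of PP held fewer epithelial counts, and fewer genes passed. The 28 genes are those of the same filter, and a gene without a count in the other tissue could not come out lower. Against BCL2 HEL pos cells of spleen 11 of 28 were higher, where 4.81% of all tested genes were, and none was lower, where 2.53% were. Those higher were Apoa1, Apoa4, Apoc3, Fabp1, Fabp2, Rbp2, Reg3b, Reg3g, Krt8, Krt20 and Vil1, and none of the 3 goblet genes was among them. The number was 7 without PP 950 and 7 without spleen 926. Rbp2 was at least 116-fold higher, Krt20 at least 80.1-fold and Apoa1 at least 59.2-fold. Reg3b was 49.9-fold higher (95% interval 16.8 to 244, counting error only). Against mLN 8 were higher, where 0.806% of all tested genes were (and none was lower, where 0.35% were), namely Apoa1, Apoc3, Fabp1, Fabp2, Rbp2, Reg3g, Krt8 and Krt20. That number was 5 without PP 926 or 950 and 4 without mLN 926 or 950, and it was 19 with no filter on low counts. For PP against spleen that fit gave 18. The median ratio over 34 genes was 7.55 against spleen, with 16 at their bound, and 9.76 against mLN, with 15 at their bound.

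Within PP, BCL2 HEL pos cells were then set against HEL pos cells. Of the 28 tested genes 15 were lower in BCL2 HEL pos cells, where 4.74% of all tested genes were lower, and none was higher, where 5.33% were. By role these were 6 of 11 enterocyte, 3 of 3 goblet, 0 of 3 antimicrobial and 6 of 11 general epithelial genes. The median log2 fold change was -2.76 over the 28 genes and -0.01 over all 11419. In 14 of the 28 every HEL pos library lay above every BCL2 HEL pos library, as did 13% of all tested genes. The reverse order held for none of the 28 and for 9.09% of all. Without HEL pos Pool and 399, which leaves 1 HEL pos library, 0 genes of the set passed (8 at an unadjusted p under 0.05), and calls over all genes dropped from 1150 to 255. The 15 estimates stayed below 0 in that fit, while the median over its 29 tested genes was -0.75. Leaving out 1 library at a time gave 10 to 20 genes. The filter could be passed through the HEL pos libraries of PP alone, as the low counts of Apob, Krt18, Cldn7 and Muc13 in the other tested groups show. A lower level in BCL2 HEL pos cells was thus favoured for such genes by the filter, and the count, the 14 of 28 and the median describe the tested genes only.

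Apolipoprotein genes were among those that fell. Apoa1 averaged 147 ± 74.3 CPM in HEL pos and 7.14 ± 6.01 CPM in BCL2 HEL pos cells (SD, n = 3 each), a log2 fold change of -4.28 ± 0.64 (SE, adjusted p = 0.00111). With library 392 as the only HEL pos library it was -3.16 (adjusted p = 0.0713). Apoa4 fell by 5.25 ± 0.78 (adjusted p = 0.00105), Apob by 6.15 ± 1.05 (adjusted p = 0.00111) and Apoc3 by 3.64 ± 0.75 (adjusted p = 0.00591). Against 392 alone Apoa4 stood at -3.33 (adjusted p = 0.0944), Apob at -4.98 (adjusted p = 0.0768) and Apoc3 at -1.85 (adjusted p = 0.428). Sis and Anpep also fell. The binding proteins did not pass: Fabp2 stood at -1.73 (95% interval -2.92 to -0.55, adjusted p = 0.0572), Fabp1 at -1.74 (-3.09 to -0.40, adjusted p = 0.0900) and Rbp2 at -1.41 (adjusted p = 0.186).

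All 3 tested goblet genes fell. Fcgbp changed by -7.09 ± 1.19 (adjusted p = 0.00125), Zg16 by -6.21 ± 0.92 (adjusted p = 4.35e-04) and Tff3 by -5.35 ± 1.05 (adjusted p = 0.00569). Against 392 alone these were -3.13 (adjusted p = 0.360), -2.80 (adjusted p = 0.154) and -1.16 (adjusted p = 0.714). Zg16 averaged 93.8 ± 131 CPM in HEL pos cells, most of it from library 399, and 1.25 ± 0.195 CPM in BCL2 HEL pos cells (SD, n = 3 each). Of the antimicrobial genes, Lyz1 stood at 0.09 (95% interval -1.45 to 1.63, adjusted p = 0.952), Reg3b at -1.19 (-3.35 to 0.98, adjusted p = 0.501) and Reg3g at -1.06 (-2.69 to 0.56, adjusted p = 0.414). All 3 intervals take in 0. Among the general epithelial genes Krt8 fell by 2.78 ± 0.59 (adjusted p = 0.00875), Krt18 fell by 5.04 ± 1.18 (adjusted p = 0.0106) and Muc13 changed by -4.26 ± 0.91 (adjusted p = 0.00725). Cldn7, Epcam and Pigr fell as well, Pigr by 1.28 ± 0.30 (adjusted p = 0.00952). Against 392 alone Krt8 stood at -1.31, Krt18 at -4.15, Muc13 at -2.84 and Pigr at -0.82, and none passed. Krt20, at -2.12 ± 0.82 (adjusted p = 0.120), and Cdh17, at 0.35 ± 0.31 (adjusted p = 0.509), did not pass.

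Of the 15 genes, 8 passed whichever single library was left out: Apoa1, Apoa4, Apob, Apoc3, Fcgbp, Krt8, Muc13 and Zg16. DESeq2 called 8 of the 15. By that tool Apoa1 (adjusted p = 0.105), Apoa4 (0.116), Fcgbp (0.0546), Krt8 (0.101), Muc13 (0.161), Sis (0.130) and Tff3 (0.0691) did not pass.

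**Figure D3:**
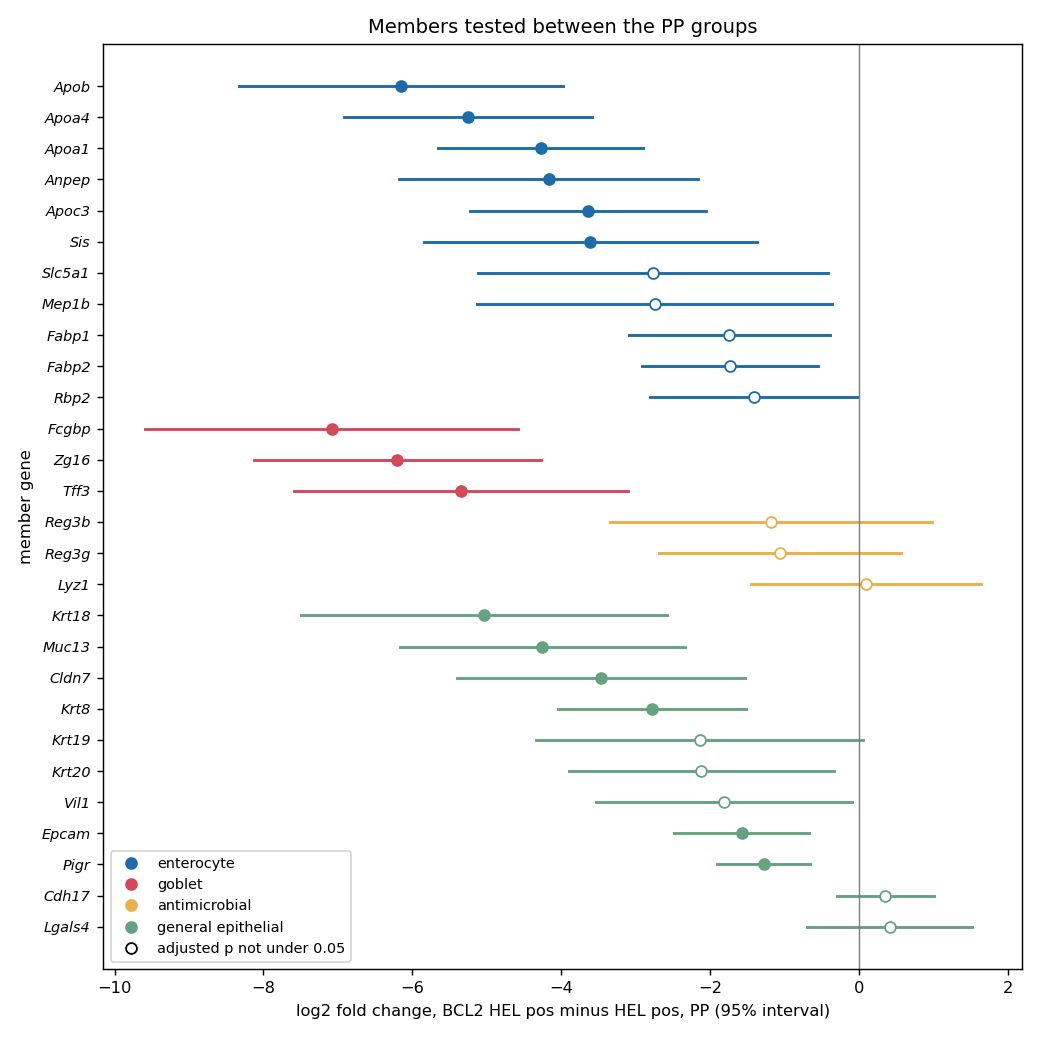
Log2 fold change of each of the 28 tested genes (the members) between BCL2 HEL pos and HEL pos libraries of PP, with its 95% interval, filled where the adjusted p was under 0.05. The 15 filled points lie below 0, and Lyz1, Lgals4 and Cdh17 have estimates above 0.

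The make-up of the epithelial counts also differed between PP libraries. Goblet genes were 20.7% of the counts in HEL neg and 29.3% in HEL pos 399, against 6.65% in HEL pos Pool and 4.79% in 392. They were 1.71% in BCL2 HEL pos 926 and 1.28% in 950. Counts of goblet genes per enterocyte count were 0.427 in HEL neg and 0.551 in HEL pos 399, against 0.109 and 0.0813 in Pool and 392 and 0.0373 and 0.0245 in BCL2 HEL pos 926 and 950. BCL2 HEL pos 922, with few counts, gave 0.515 (95% exact interval 0.330 to 0.791). The 2 HEL pos libraries with the largest epithelial sums thus differed in goblet share, and HEL pos 399 was closer to HEL neg than to Pool.

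**Figure D4:**
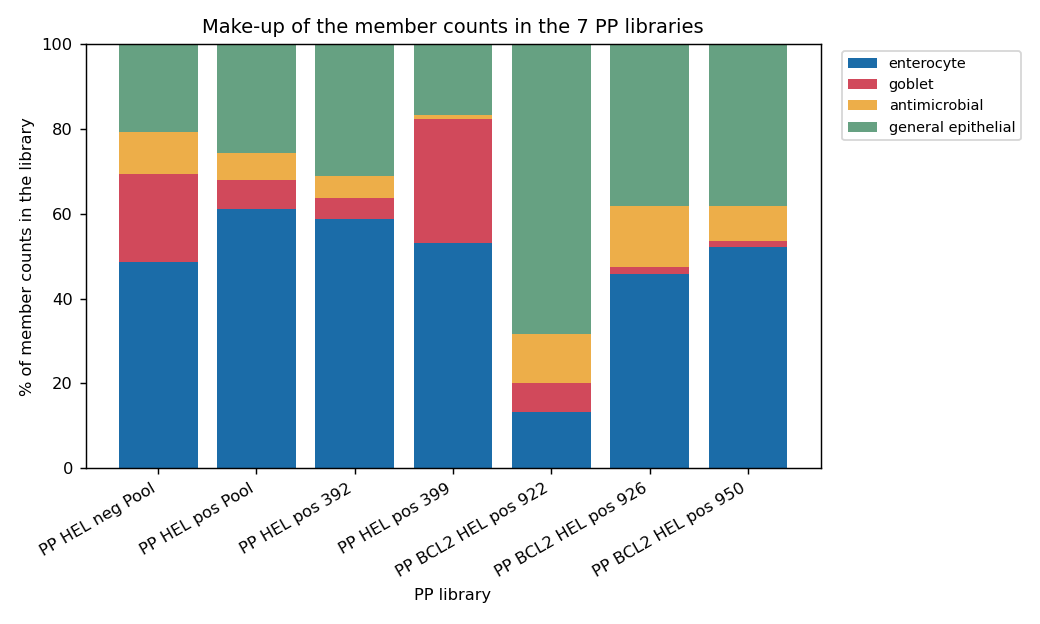
Percent of the counts of the 36 epithelial genes (the members) in each PP library that came from enterocyte, goblet, antimicrobial and general epithelial genes. The goblet share was 29.3% in HEL pos 399 and 20.7% in HEL neg, and 6.85% or less in the other 5 libraries.

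Fabp2 per Apoa1 count was 0.648 in HEL neg and 1.05, 0.852 and 0.543 in HEL pos Pool, 392 and 399. It was 3.92 (3.03 to 5.13) in BCL2 HEL pos 926, 4.91 (4.05 to 5.98) in 950 and 14.5 (3.67 to 125) in 922. The groups did not overlap in this chosen pair of genes, and the value of 922 rests on 2 counts of Apoa1. How often other pairs of genes separate the groups was not worked out. Apoa4 per Apoa1 count was 1.47 in HEL pos 399 and 0.606 to 0.744 in HEL neg, HEL pos Pool and 392. In BCL2 HEL pos cells it was 2.00 in 922 (95% exact interval 0.287 to 22.1), 0.297 in 926 and 0.703 in 950. Reg3b and Reg3g together per enterocyte count were 0.00616 in HEL pos 399, against 0.203 in HEL neg, 0.102 in Pool and 0.0692 in 392. In BCL2 HEL pos cells they were 0.258 in 922, 0.273 in 926 and 0.102 in 950, so that the groups overlapped. Lyz1 per enterocyte count ran from 0.00347 in HEL neg to 0.606 (0.399 to 0.911) in BCL2 HEL pos 922. General epithelial genes made up 16.8 to 31.1% of the counts in HEL neg and HEL pos libraries and 38.2 to 68.3% in BCL2 HEL pos libraries. In BCL2 HEL pos 922 Cdh17 alone held 39.9% of a small sum, while Fabp2 led in 926 (19.8%) and 950 (21.2%).

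**Figure D5:**
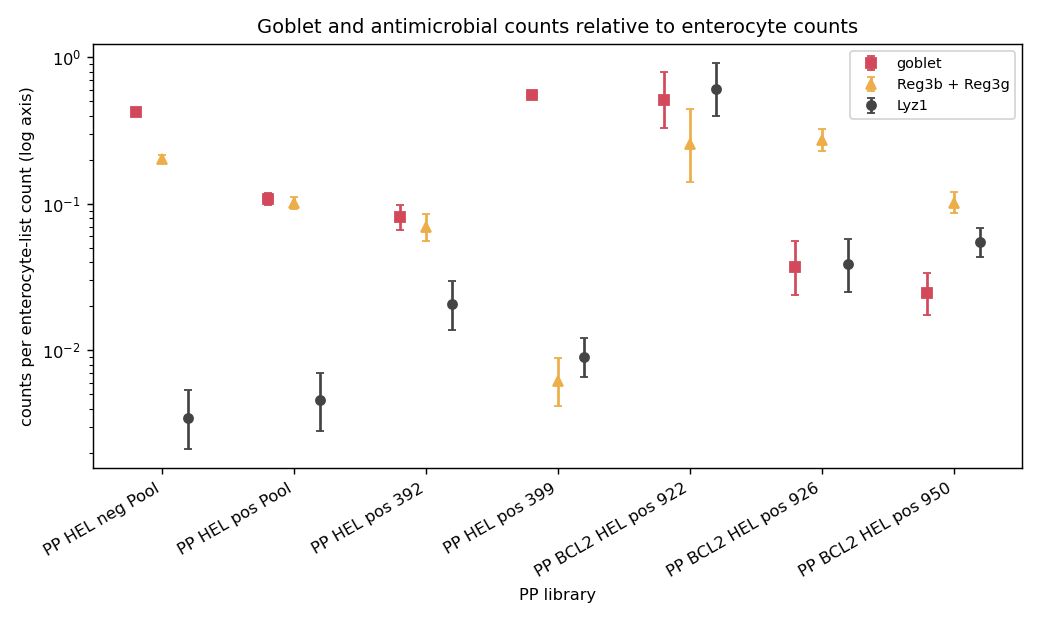
Counts of goblet genes, of Reg3b with Reg3g, and of Lyz1 per enterocyte count in each PP library, on a log axis, with 95% exact intervals for counting error. Goblet counts per enterocyte count were 0.551 in HEL pos 399 and 0.0245 in BCL2 HEL pos 950, and Reg3b with Reg3g were lowest in HEL pos 399, at 0.00616.

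Outside PP a few counts were found. The mLN HEL pos library 392 held 23 of the genes, with 13 counts of Fabp2, 9 of Apoa4, 7 of Reg3b and 4 of Zg16. Spleen HEL pos 399 held 11 counts of Sis, 8 of Fabp2, and 7 each of Anpep and Fcgbp, and was the spleen library with the most receptor transcripts. Between mLN and spleen HEL pos cells Epcam was higher in mLN by 1.36 ± 0.43 (adjusted p = 0.0226, where 12.9% of all genes were higher), and this call was lost without mLN 392, mLN 399, spleen 392 or spleen 399. Cdh17 was lower in mLN, at -2.01 ± 0.33 (adjusted p = 1.03e-04, where 11.5% were lower). In BCL2 HEL pos cells edgeR called 0 genes of the set between mLN and spleen, where 5.77% of all were higher and 4.23% lower (0 at an unadjusted p under 0.05, and 0 by DESeq2). Genes without a count in either group, among them Apoa4, Rbp2, Krt8 and Krt20, could not be called, so the 0 says nothing about them. The interaction, which asks whether the difference between PP and spleen changed with BCL2, passed for 0 genes, where 0.00876% of all passed. It could not be estimated for genes without a count in spleen, such as Apoa1 (SE 15852) and Krt20 (SE 9295). Such genes could not pass. Of the 28 tested genes 5 had an unadjusted p under 0.05, DESeq2 called 1, and the smallest edgeR adjusted p was 0.195. Of the 28 estimates 24 were below 0. For genes without a count in spleen the estimate repeats the fold change between the PP groups (Apoa1 -4.28 and Krt20 -2.12 in both). The filter on low counts also favoured estimates below 0, so the 24 describe the tested genes only.

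Enterocyte genes outside the 37 gave a like picture, while a list of other goblet genes did so only in part. A list of other enterocyte genes summed to 608 CPM in HEL neg, 371, 97.0 and 356 CPM in HEL pos Pool, 392 and 399, and 26.3, 59.0 and 86.9 CPM in BCL2 HEL pos 922, 926 and 950, against 16.6 to 31.2 CPM elsewhere. Its genes went through the same filter on low counts, which could be passed through the HEL pos libraries of PP alone. A higher level there was thus favoured for genes with few counts elsewhere, and the numbers describe the tested genes only. Of the list's 18 tested genes 14 were higher in PP than in spleen HEL pos cells, where 7.94% of all genes were. In PP, 11 were lower in BCL2 HEL pos than in HEL pos cells, where 4.74% were. Without PP HEL pos Pool and 399 these numbers were 3 and 0, by a fit chosen after the data were seen. Fabp6, a bile acid-binding protein of the ileum, had 104 counts in HEL neg, 107, 83 and 26 in HEL pos Pool, 392 and 399, and 5, 16 and 28 in BCL2 HEL pos 922, 926 and 950. Clca3, another goblet cell gene, followed Zg16. It had 184 counts in HEL neg and 204 in HEL pos 399, against 63 in Pool and 10 in 392. The 11 genes of its list together came to 78.2 CPM in HEL neg and 41.9, 14.4 and 52.3 CPM in HEL pos Pool, 392 and 399. In BCL2 HEL pos cells of PP they came to 6.35 to 10.6 CPM, against 8.59 to 35.8 CPM in spleen and mLN. Of 3 tested, 1 was higher in PP than in spleen HEL pos cells, where 7.94% of all genes were. Transcription factors of the gut epithelium summed to 30.9 CPM in HEL neg and 2.12 to 29.4 CPM in the other PP libraries, against 0.770 to 5.04 CPM elsewhere. Gp2, the receptor of M cells, which lie over the follicles, had 0 to 6 counts per PP library. Fibroblast and smooth muscle genes summed to 5.61 CPM or less in PP and 4.32 CPM or less elsewhere.

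The genes whose level over the 21 libraries was most like that of the epithelial sum were named by correlation of log2(CPM + 0.5), among 9206 genes outside the set. Among the 12 most alike were Sectm1b, Prap1, Mogat2, Phgr1, Spink3, Guca2b, Alpi, Ifi27l2b, 2210415F13Rik, Cdhr5 and Tm4sf5, with r from 0.95 to 0.97. The PP libraries stand apart from the other 14, and over the 7 PP libraries alone r lay between 0.92 and 0.98 for these genes. Mogat2 makes diacylglycerol in fat absorption, Alpi is the intestinal alkaline phosphatase and Cdhr5 is a cadherin of microvilli. Within the set r was 0.98 for Apoc3, 0.72 for Lyz1, 0.67 for Pigr, 0.50 for Epcam, 0.39 for Lgals4 and 0.30 for Cdh17.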

How the data were processed

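RNA of sorted B cells was sequenced single-end, per the labels' protocols, which name 2 library kits. The authors deposited whole-number counts per gene, and the submitters' processing notes name STAR, HTSeq, DESeq2 and mm10 without roles. Whether strand was used in counting is not given in the sources used here, and 5 of the genes (Apoa4, Krt8, Vil1, Cldn3 and Muc13) overlap exons of a gene on the other strand. Levels here are CPM of plain library totals (5475131 to 11340876 counts). Their intervals are exact (Clopper-Pearson for shares) and cover counting error only, since reads carry no molecular identifiers. Tests used edgeR 4.0.16 (R 4.3.3) on the deposited counts of 18 libraries in 6 groups, without HEL neg: filterByExpr, TMM scaling, quasi-likelihood test, Benjamini-Hochberg adjustment over 11419 genes, threshold 0.05. The steps were tested on simulated data with moderate changes in genes well above 0 counts. Groups with 0 counts and very large changes, as seen here, were not covered. HEL neg has 1 library per tissue, so it has values and no test. Alternatives were DESeq2 1.42.0, DESeq2 size factors, no filter on low counts, only the compared libraries, library number as a block, and libraries left out. Coordinates and exon lengths come from GENCODE M21, promoters from RefSeq. Genes with values in each PP library were the 6 enterocyte, 4 goblet, 3 antimicrobial and 5 general epithelial genes of highest mean in PP, and those at 1 CPM or more in a spleen or mLN library, with a few more for context. Of the 12 genes most like the epithelial sum, 1 is not reported here. The genes and lists were chosen with earlier results of these data known.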

Additional observations from a re-analysis of the deposited data

How the results depend on the processing

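The summed epithelial level of PP HEL pos cells, 1062 CPM, was 1012 CPM with TMM-scaled totals, 643 CPM without the 3 highest genes and 795 to 1416 CPM when 1 library was left out. That of PP BCL2 HEL pos cells, 173 CPM, was 174, 129 and 129 to 228 CPM in the same order. Numbers of genes called moved more. Without PP HEL pos Pool and 399, with the lone HEL pos library assumed to vary like the other groups, 15 were higher than in spleen, 11 than in mLN, and 0 were called between BCL2 HEL pos and HEL pos cells of PP. With no filter on low counts the numbers were 18 for PP against spleen and 19 for PP against mLN in BCL2 HEL pos cells, 23 for BCL2 HEL pos against HEL pos cells of PP and 4 for the interaction. DESeq2 called 8 between BCL2 HEL pos and HEL pos cells of PP and 1 in the interaction. A fit of only the 6 compared libraries tested 10 of the genes and called 6 for PP against spleen in BCL2 HEL pos cells. The cause of these moves was not tested. Some of these fits also held fewer libraries or tested fewer genes. Leaving out 1 library at a time gave 7 to 13 for PP against spleen and 4 to 10 for PP against mLN in BCL2 HEL pos cells, 10 to 20 between BCL2 HEL pos and HEL pos cells of PP, 23 to 27 and 20 to 29 for PP against spleen and mLN in HEL pos cells, and 1 to 2 for mLN against spleen in HEL pos cells. Over all genes, it moved the PP against mLN counts from 1012 to between 374 and 1512 in HEL pos cells and from 132 to between 25 and 98 in BCL2 HEL pos cells. It moved BCL2 HEL pos against HEL pos in PP from 1150 to between 638 and 1638, and the interaction from 1 to between 1 and 23. No named gene that passed in the fit of all 18 libraries reversed its direction among these alternatives. This does not cover genes that did not pass. Lgals4, for example, had a PP to spleen CPM ratio in HEL pos cells of 1.78, but 0.735 with library 392 alone (interval 0.314 to 1.54, counting error only). Its PP to mLN ratio was 1.34, but 0.553 with 392 alone (0.242 to 1.12). With the library number as a replicate block, PP against mLN in BCL2 HEL pos cells gave 16, PP against spleen 14 and the interaction 1. Of 18 pairs of same-numbered libraries 13 had deviations correlated over 0.1 (range 0.0204 to 0.307), and 16 correlated best with their own number. The labels do not tie a number to a mouse, so the numbers were not taken as pairs. BCL2 HEL pos and HEL pos libraries share no number, so no block could be used between them. A level under 0.265 to 0.548 CPM, by library, rests on fewer than 3 counts.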

Other observations

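Genes counted almost only in PP were also collected without regard to the 37 names, by a rule chosen after the values were seen: at most 10 counts over the 14 libraries of spleen and mLN and a mean of at least 5 CPM over the 7 PP libraries. The rule found 37 genes, of which 15 belonged to the epithelial set, 6 to the other lists of gut epithelial genes and 16 to no list. The 16 included the carboxylesterase Ces2e, the alcohol dehydrogenases Adh1 and Adh6a, the cytochrome P450 gene Cyp4f14, the brush border dipeptidase Dpep1 and the lectin Reg1. Ces2e stood at 55.0 CPM in HEL neg, 17.7, 4.45 and 39.8 CPM in HEL pos Pool, 392 and 399, and 0, 3.07 and 0.0882 CPM in BCL2 HEL pos 922, 926 and 950. Reg1, which epithelial cells make on injury, stood at 4.20 CPM in HEL neg, 3.80, 3.86 and 38.3 CPM in HEL pos Pool, 392 and 399, and 0.249, 0.267 and 1.59 CPM in BCL2 HEL pos 922, 926 and 950. Together the 37 genes came to 2202 CPM in HEL neg, 1136, 302 and 1621 CPM in HEL pos Pool, 392 and 399, and 16.2, 142 and 210.4 CPM in BCL2 HEL pos 922, 926 and 950. The named epithelial genes supplied 59.6 to 74.6% of these counts in each PP library.

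Genes of rarer epithelial cells were near the level of other tissues in most PP libraries. Tuft cell genes summed to 11.4 CPM in HEL pos Pool and 0.529 to 4.00 CPM in the other PP libraries, against 0 to 4.32 CPM elsewhere. Enteroendocrine genes summed to 8.52 CPM in HEL pos 399, 5.12 CPM in Pool and 0 to 3.26 CPM in the other PP libraries, against 0 to 1.44 CPM elsewhere. Gata4, a transcription factor of the upper small intestine, had 69 of its 82 PP counts in HEL pos 399. Hnf4g, another factor of enterocytes, had 31 counts in HEL neg, 45, 2 and 0 in HEL pos Pool, 392 and 399, and 0, 13 and 34 in BCL2 HEL pos 922, 926 and 950.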
